A study of Mus musculus with 4 samples.

Results

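The basal keratinocyte is the cell of the epidermis that sits on the basement membrane. The 9 genes described here encode its keratins (Krt5, Krt14 and Krt15) and parts of the hemidesmosome, the junction that ties those keratins to the basement membrane (Itga6, Itgb4, Col17a1, Dst, Lama3 and Lamb3). Every probe set (a group of probes read together as 1 signal) whose platform annotation names exactly 1 of these genes was taken. This gave 16 of 45037 probe sets and 9 of 18193 genes. 1 further probe set names both Krt14 and Krt17 and was left out. Signal was measured on Affymetrix MOE430 2.0 arrays in dorsal epidermis of mouse embryos at E15.5, parted from the dermis with dispase. The mutants (2 embryos, 1 array each) were KRT14-Cre Ctnnb1(Ex3)fl/+, in which Cre removes exon 3 from 1 of the 2 copies of the beta-catenin gene, and with it the sites that mark the protein for destruction. The controls (2 embryos, 1 array each) were littermates, whose own genotype is not given in the sources used here. The KRT14 promoter that drives Cre is active in basal keratinocytes, and the mouse Krt14 signal given here does not measure Cre.

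In the basal cell Krt5, a type II keratin, pairs with the type I keratins Krt14 and Krt15, and the filaments end on the hemidesmosome. There Dst (dystonin, whose epidermal form is a plaque protein) and plectin bind them to the integrin of Itga6 and Itgb4 and to collagen XVII (Col17a1), both of which span the membrane. Outside the cell this integrin holds a laminin that contains the chains encoded by Lama3 and Lamb3, and inherited loss of these proteins causes blistering of the skin.

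The arrays had been scaled to 1 trimmed mean, and median signals were 30.1 and 28.6 in mutants, against 26.7 and 27.6 in controls. Ctnnb1 itself was higher in mutants on all 3 of its probe sets, by 0.47 to 0.89 on the log2 scale, which does not check the loss of exon 3. All 7 markers of basal keratinocytes lay above the 40th percentile on every array, but 6 of them are among the 9 genes described here and only Trp63 is not. Their summed signal was 17662 and 19576 in mutants, against 24404 and 23805 in controls, with 3 lower, 2 higher and 2 not passing. On each array 0 or 1 of 5 endothelial, 0 to 2 of 5 muscle and 3 or 4 of 5 leukocyte markers lay above that percentile, none of which passed the test. Other cells and layers of the epidermis differed. For comparison, of all 12469 genes, each read by its brightest probe set, 20.6% rose and 24.5% fell in mutants. Of 8 tested suprabasal markers 7 fell, with a summed signal over the list of 6476 and 6769 in mutants, against 48303 and 49018 in controls. All 5 hair shaft keratins measured rose, with sums of 27904 and 34011 in mutants, against 47.4 and 49.7 in controls, and all 6 melanocyte markers rose, with sums of 4659 and 5799 in mutants, against 1307 and 1318 in controls. Of 5 tested dermal markers 1 rose and 1 fell, with sums of 3546 and 3926 in mutants, against 3088 and 3853 in controls. Dcn, which rose, made up most of these sums, with 3444 and 3704 in mutants, against 2908 and 2900 in controls. Col1a2, which fell, had 44.0 and 74.4 in mutants, against 118 and 376 in controls. Col3a1 signal was 26.6 and 27.7 in mutants, against 22.9 and 381 in controls. Of 3 periderm or simple epithelial keratins 1 fell. The part of these shifts in the values that follow was not tested. In bulk epidermis, fewer basal cells and less RNA per basal cell cannot be told apart.

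The 9 genes did not move as one. Krt15, Krt14, Col17a1 and Dst fell in mutant epidermis, Itga6, Itgb4 and Lamb3 rose, and Krt5 and Lama3 did not pass the test. Of the 16 probe sets 15 were tested, being above the 40th percentile of their array on at least 2 arrays. Of these, 8 fell, 4 rose and 3 did not pass at a limma adjusted p of 0.05. Over all 28434 probe sets tested 20.5% fell and 18.9% rose, or 39.4% in either direction. On 10 of the 15 both mutants lay below both controls and on 5 both lay above, which held for 37.5% and 34.2% of all probe sets tested, or 71.7% together. The median absolute log2 change of the 15 was 0.62, against 0.45 over all probe sets tested, and that of the 12 that passed was 0.70, against 0.97 over all that passed. At least 2-fold changes past the threshold were seen on 3 of the 15, and on 19.2% of all probe sets.

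**Figure D1:**
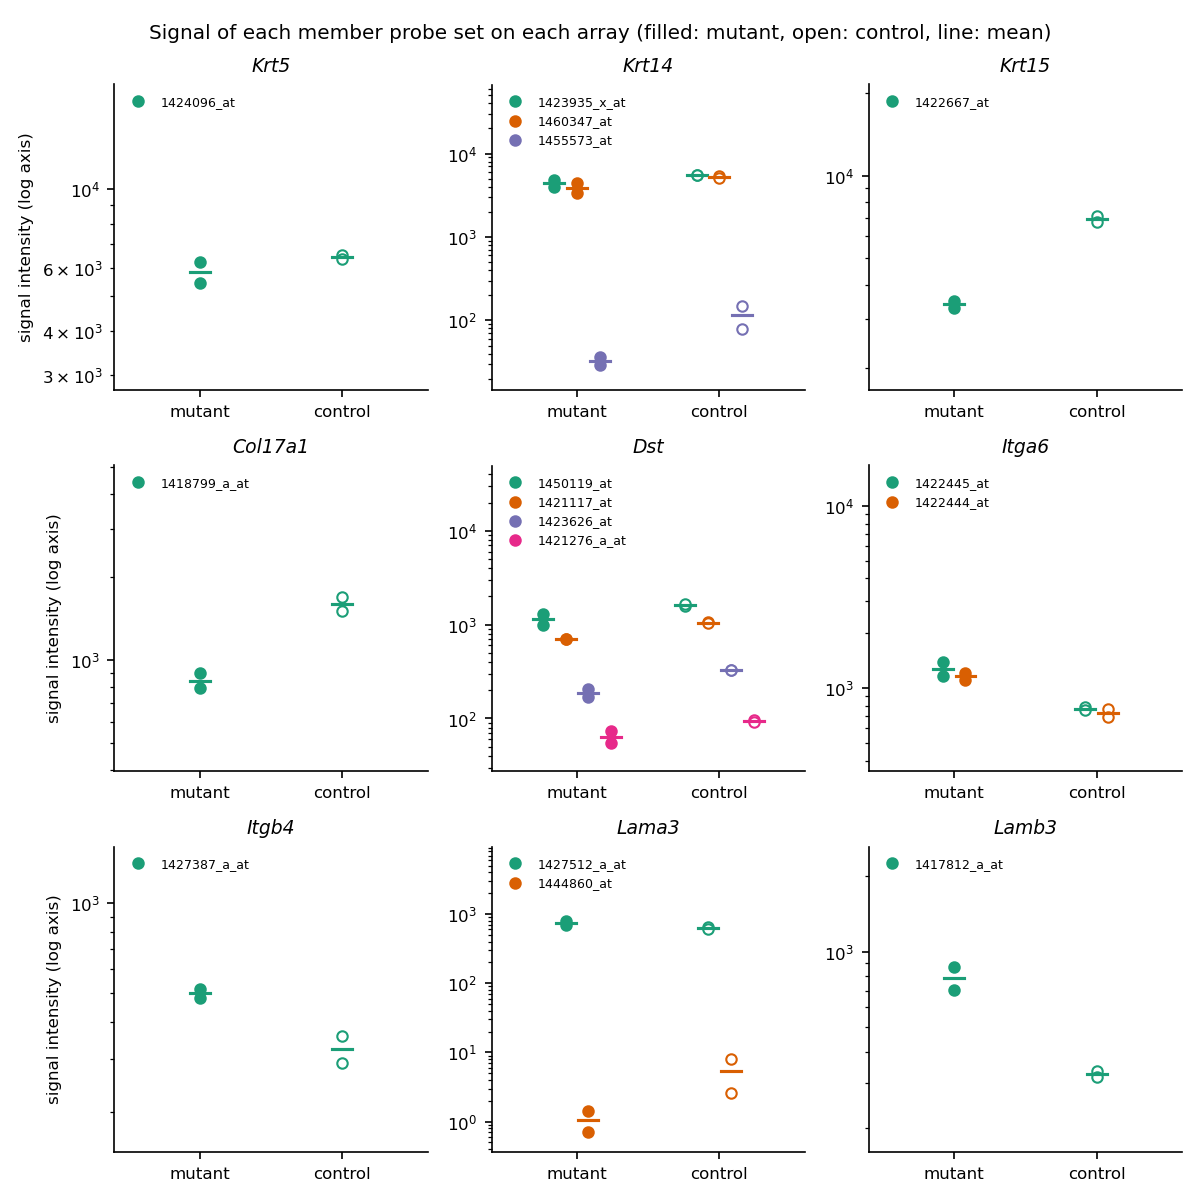
Signal intensity (log axis, with a range of its own in each panel) of the 16 probe sets of the 9 genes, with filled points for the 2 mutant arrays, open points for the 2 control arrays and a line at each mean. Both mutants lie below both controls on every probe set of Krt5, Krt14, Krt15, Col17a1 and Dst and above them for Itga6, Itgb4 and Lamb3; the lower probe set of Lama3 is below the 40th percentile on all 4 arrays.

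**Figure D2:**
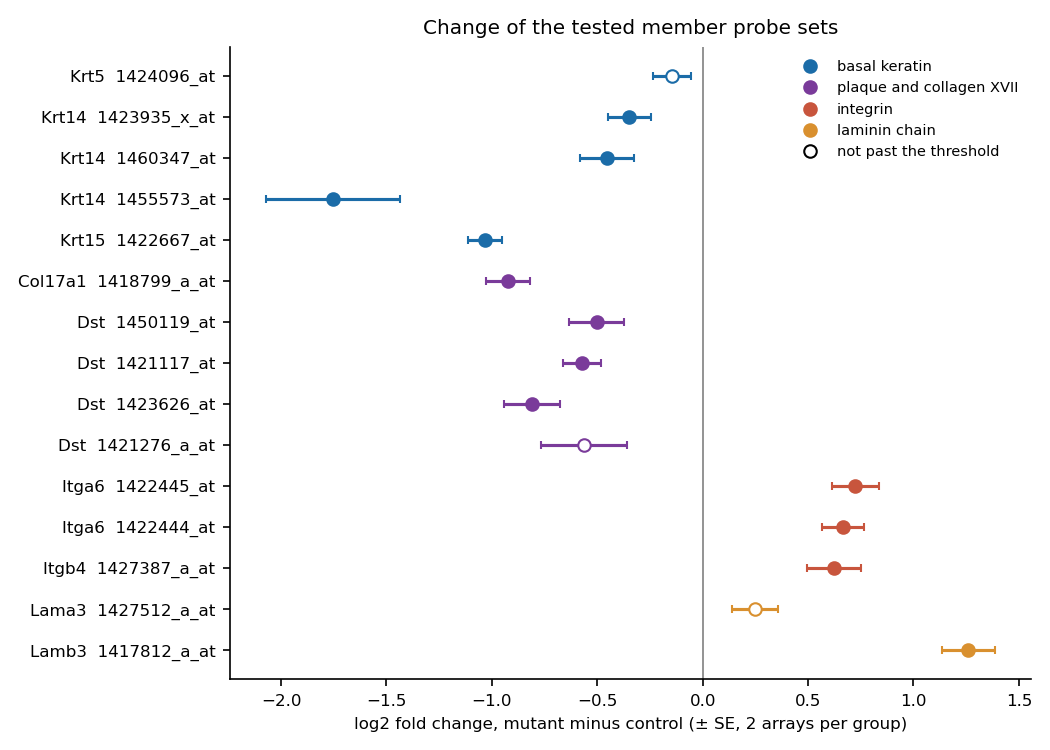
Log2 fold change (mutant minus control) of the 15 tested probe sets, with bars for the standard error of the fit over 2 arrays per group; open points did not pass the threshold. Keratin, Col17a1 and Dst probe sets lie below 0 and integrin and laminin probe sets above it, from -1.75 (the dimmest of Krt14) to 1.26 (Lamb3).

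Among the keratins, Krt15 showed the steadiest fall. Krt15 is a type I keratin of basal cells that also marks stem cells of the adult hair follicle, and it is read by 1 probe set. Its signal was 3493 and 3303 in mutants, against 7147 and 6749 in controls. The 2 arrays of each group lay close together and the groups far apart, a 2.04-fold fall (log2 change -1.03 ± 0.08, SE, n = 2 per group; limma adjusted p = 5.42e-05). Under the 11 alternatives of the fit the log2 change stayed between -1.14 and -0.99 and past the threshold. The authors' deposited table, which rests on GCRMA expression, gives Krt15 a control-over-mutant fold of 2.38.

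Krt14, the main type I partner of Krt5, fell less on its 2 bright probe sets. On the brightest, whose suffix marks probes that may also bind related transcripts, signal was 3985 and 4815 in mutants, against 5604 and 5542 in controls. The mutants differed from each other more than the controls did, and the fall was 1.27-fold (log2 change -0.35 ± 0.10, limma adjusted p = 0.0303). The second had 3361 and 4387 in mutants, against 5452 and 5077 in controls, a log2 change of -0.45 ± 0.13 (limma adjusted p = 0.0242). Neither call held on leaving out control 1 (adjusted p = 0.120 and 0.116), control 2 (0.103 and 0.0577) or mutant 1 (0.119 and 0.0741), or with no intensity trend in the fit (0.164 and 0.142). The brightest also missed the threshold with dim probe sets kept in the test (0.0672). The third probe set was far dimmer, at 29.0 and 36.4 in mutants, against 151 and 79.4 in controls. Its controls were far apart but both above the mutants, and its log2 change was -1.75 ± 0.32 (limma adjusted p = 3.66e-03), past the threshold under all 11 alternatives. It is the only Krt14 probe set that the authors' deposited table lists, with a control-over-mutant fold of 7.51. The size of the fall thus differed between the probe sets of Krt14, from 1.27-fold to 3.37-fold.

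Krt5, the type II keratin of the same filaments, did not pass. Its signal was 5445 and 6231 in mutants, against 6544 and 6347 in controls, with mutant 2 close to control 2. The log2 change was -0.15 ± 0.09 with a 95% interval of -0.36 to 0.06 (limma adjusted p = 0.241), which leaves out a fall as large as that of Krt15. It overlaps the intervals of the bright Krt14 probe sets, -0.59 to -0.11 and -0.75 to -0.16. The 4 bright probe sets of these keratins are near the top of the range, with 0.275% to 1.05% of probe sets brighter on any array; whether signals are compressed there was not tested.

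Of the keratin genes measured next to them in the genome, all but Krt19 rose. Krt14 and Krt15 stand in the type I keratin cluster with 2 genes between them, Krt19 and Krt9, and Krt5 stands in the type II cluster. The nearest 2 protein-coding genes on either side were taken from the RefSeq gene order of GRCm38.p6, and Krt9 was not analysed here. Krt16 and Krt17, beside Krt14 and known from wounded skin and the hair follicle, rose by 2.67 ± 0.21 and 1.09 ± 0.09 on the log2 scale. Krt36 and Krt13, beside Krt15, rose by 6.81 ± 0.35 and 0.58 ± 0.13. Around Krt5, the log2 rises were 3.62 ± 0.40 for Krt6b, 0.68 ± 0.14 for Krt6a, 3.09 ± 0.48 for Krt71 and 4.50 ± 0.13 for Krt72. Of the 9 neighbours measured 8 thus rose, beside 20.6% of all 12469 genes, each read by its brightest probe set. Krt19, a keratin of simple epithelia and the follicle, had 1473 and 1230 in mutants, against 1509 and 1960 in controls, and its log2 change of -0.35 ± 0.14 did not pass (limma adjusted p = 0.0869). It passed on leaving out control 1 (0.0277) or mutant 1 (0.0438), and the rise of Krt13 did not pass on leaving out mutant 2 (0.0595). Control signal of Krt36 was 10.5 and 23.8, and that of Krt6b and Krt71 was as low, so the sizes of these rises are uncertain, and signals of the near-identical Krt6a and Krt6b may be mixed.

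**Figure D3:**
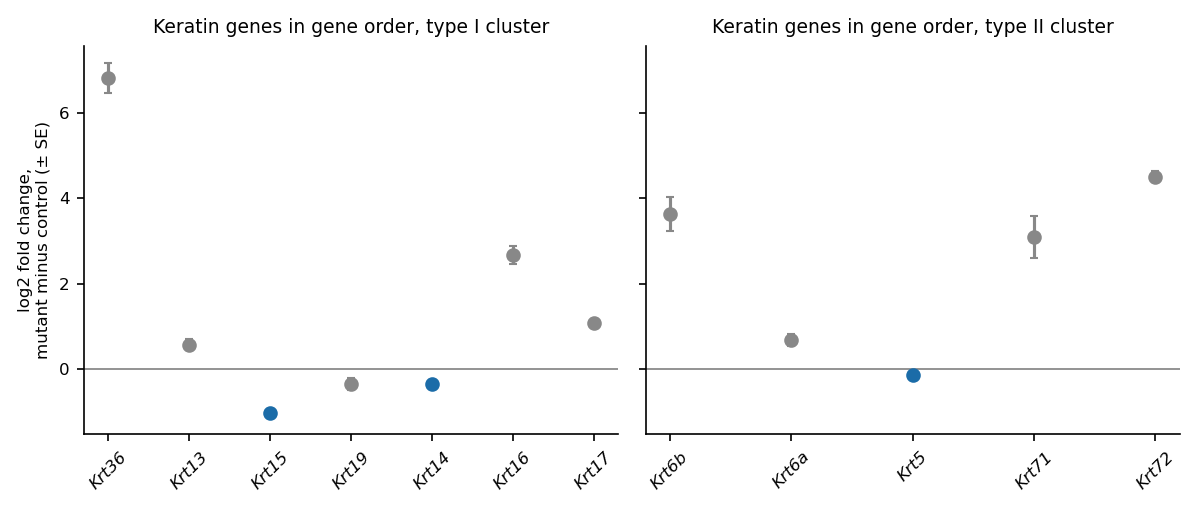
Log2 fold change (mutant minus control, ± SE over 2 arrays per group) of Krt15, Krt14 and Krt5 and of their neighbours, each read by its brightest tested probe set and placed in gene order along the type I and type II keratin clusters; distances are not to scale. The 3 basal keratins and Krt19 lie below 0 and the other genes above it.

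Col17a1 and Dst, which lie where keratins meet the membrane, both fell. Col17a1 encodes collagen XVII, a membrane-spanning collagen of the hemidesmosome, and is read by 1 probe set. Its signal was 792 and 897 in mutants, against 1693 and 1514 in controls. The groups were far apart, and the fall was 1.90-fold (log2 change -0.93 ± 0.10, limma adjusted p = 3.52e-04), between -1.04 and -0.84 under the alternatives. Its control-over-mutant fold in the authors' deposited table is 2.09.

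On all 4 probe sets of Dst, which share the same 4 arrays, both mutants lay below both controls, which held for 37.5% of all probe sets tested. The brightest had 991 and 1302 in mutants, against 1565 and 1656 in controls, a log2 change of -0.50 ± 0.13 (limma adjusted p = 0.0190). That call did not hold on leaving out control 1 (0.0526), control 2 (0.0840) or mutant 1 (0.0640), nor with no intensity trend (0.118). The second had 696 and 711 in mutants, against 1055 and 1036 in controls, a log2 change of -0.57 ± 0.09 (limma adjusted p = 1.76e-03). The third had 171 and 205 in mutants, against 329 and 327 in controls, a log2 change of -0.81 ± 0.13 (limma adjusted p = 2.24e-03). On both, the controls were nearly equal and the call held under every alternative of the fit. The dimmest had 54.6 and 73.2 in mutants, against 95.7 and 90.8 in controls, and its log2 change of -0.56 ± 0.20 did not pass (limma adjusted p = 0.0621). It passed with median centring (0.0355) and on leaving out mutant 2 (0.0290). It is the only Dst probe set in the authors' deposited table, with a control-over-mutant fold of 2.73. Dst also encodes long neural and muscle forms, and the sources used here do not say which form each probe set reads.

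DNA before the gene starts is shown because Col17a1 and Dst fell, Lamb3 rose and Krt5 did not pass. RefSeq promoter windows (GRCm38.p6) were found for 5 of the 9 genes, 7 windows in all, and the 250 bases before each start were searched on both strands. The motifs CTTTGA and CTTTGT are core letters of the site of the LEF and TCF factors through which beta-catenin acts. The third motif, TATAAA, is 1 form of the TATA box. Only exact matches were counted, and they are in capitals. The windows printed are chr19:47692043-47692292 (minus strand) for Col17a1, chr1:34011345-34011594 (plus strand) for Dst, chr15:101712906-101713155 (minus strand) for Krt5 and chr1:193301744-193301993 (plus strand) for Lamb3. Those of Dst and Lamb3 belong to starts inside the annotated span of the gene, and for each of these genes a second window, also inside it, is not printed. The Krt14 window, not printed either, likewise lies before a start 1480 bases inside the annotated gene. Which form of Dst each of its starts belongs to was not examined.
Col17a1: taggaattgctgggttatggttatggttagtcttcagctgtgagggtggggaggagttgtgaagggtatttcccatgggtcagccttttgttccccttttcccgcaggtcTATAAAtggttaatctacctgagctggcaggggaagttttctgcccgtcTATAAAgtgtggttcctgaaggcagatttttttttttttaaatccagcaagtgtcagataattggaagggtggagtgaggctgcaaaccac
Dst: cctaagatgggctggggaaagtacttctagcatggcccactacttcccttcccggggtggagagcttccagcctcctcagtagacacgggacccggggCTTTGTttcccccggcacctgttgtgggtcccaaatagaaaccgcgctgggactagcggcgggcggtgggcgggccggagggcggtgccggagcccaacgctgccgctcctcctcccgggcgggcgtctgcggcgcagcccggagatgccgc
Krt5: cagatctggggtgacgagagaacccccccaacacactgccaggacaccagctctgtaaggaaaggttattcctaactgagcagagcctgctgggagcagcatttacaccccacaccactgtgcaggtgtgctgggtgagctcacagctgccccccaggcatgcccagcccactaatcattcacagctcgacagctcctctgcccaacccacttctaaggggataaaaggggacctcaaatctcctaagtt
Lamb3: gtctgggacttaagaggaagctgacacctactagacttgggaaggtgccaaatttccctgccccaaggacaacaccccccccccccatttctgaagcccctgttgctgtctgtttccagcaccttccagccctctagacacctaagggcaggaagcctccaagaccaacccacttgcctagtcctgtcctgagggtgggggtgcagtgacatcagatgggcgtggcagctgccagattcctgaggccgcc
Col17a1 held 2 TATAAA matches, 140 and 91 bases before the start, and the Dst window shown held 1 CTTTGT match, 152 bases before it. No exact match was in the Krt5 and Krt14 windows, in either window of Lamb3 or in the second window of Dst. Other forms of these sites were not searched for, so a TATA box of another form, in Krt5 or elsewhere, would be missed. Of all 32851 windows of this length, 13.8% held CTTTGA, 16.5% CTTTGT and 12.4% TATAAA.

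Both chains of the integrin rose. Itga6 encodes the alpha chain, which also pairs with Itgb1. Its brighter probe set had 1162 and 1389 in mutants, against 783 and 755 in controls, a 1.65-fold rise (log2 change 0.72 ± 0.11, limma adjusted p = 1.53e-03). The other had 1101 and 1215 in mutants, against 763 and 697 in controls, a 1.59-fold rise (0.67 ± 0.10, limma adjusted p = 1.52e-03). The 2 probe sets gave nearly the same change, and both calls held under every alternative of the fit. Itgb4, the beta chain, which pairs only with Itga6, had 481 and 517 in mutants, against 358 and 292 in controls. Both mutants were above both controls, a 1.54-fold rise (0.62 ± 0.13, limma adjusted p = 6.68e-03) that missed the threshold only with no intensity trend (0.0576).

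Of the laminin chains Lamb3 rose and Lama3 did not pass. Lamb3, the beta chain, had 705 and 872 in mutants, against 336 and 319 in controls. Both mutants lay far above both controls, and the rise was 2.40-fold (log2 change 1.26 ± 0.13, limma adjusted p = 1.81e-04), between 1.11 and 1.41 under the alternatives. The authors' deposited table gives Lamb3 a control-over-mutant fold of 0.386, which is higher in mutants. Lama3, the alpha chain, had 685 and 787 in mutants, against 640 and 597 in controls. Both mutants were above both controls, but the log2 change of 0.25 ± 0.11 did not pass (limma adjusted p = 0.105). Its 95% interval of -0.0016 to 0.50 lies below that of Lamb3, 0.97 to 1.55. The second Lama3 probe set had 1.40 and 0.717 in mutants, against 8.06 and 2.63 in controls, below the 40th percentile on every array, and was not tested.

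**Figure D4:**
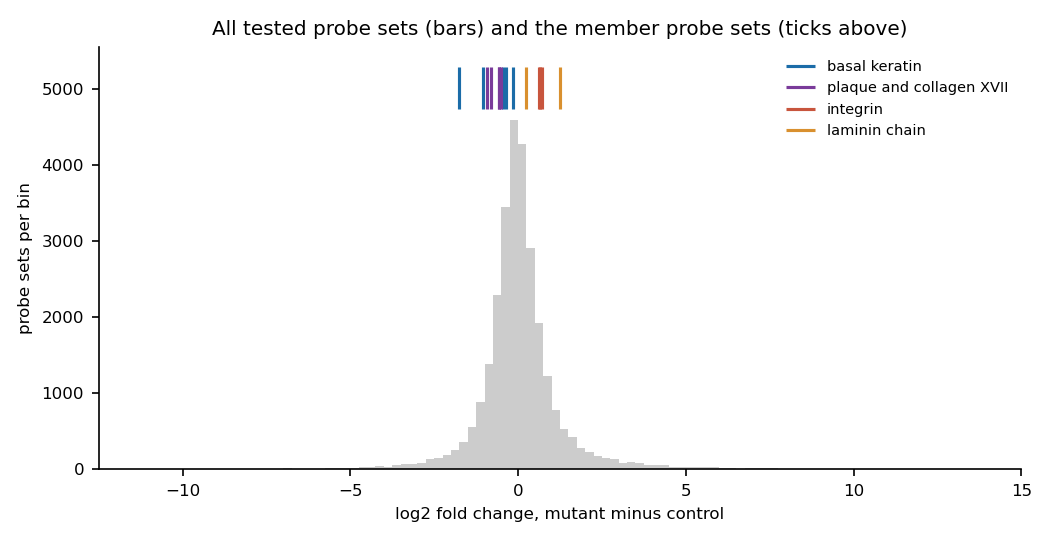
Number of probe sets by log2 fold change (mutant minus control, bins of 0.25) for all 28434 tested, with the 15 tested probe sets of the 9 genes marked and coloured by role. The marked probe sets lie between -1.75 and 1.26, while the bars run from -11.25 to 13.75.

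Other genes of the junction, the basement membrane and the basal cell were read from 5 lists of 55 genes, of which 49 had a tested probe set. By the brightest probe set of each, 17 rose, 10 fell and 22 did not pass, with a median log2 change of 0.0050; over all genes 20.6% rose and 24.5% fell, and the median over all probe sets was -0.026. Of 4 tested genes listed as hemidesmosome partners 3 rose (Plec, Cd151 and Krt17). Krt17 is a keratin and not a part of the junction, and its rise is also counted above among the neighbours of Krt14. Erbin did not pass, with -0.27 ± 0.10 (limma adjusted p = 0.0688, and 0.0229 with median centring). Plec encodes plectin, the other plaque linker to keratin, and its brightest probe set had 1034 and 1144 in mutants, against 692 and 601 in controls (log2 change 0.75 ± 0.11, limma adjusted p = 1.22e-03). Its second rose by 0.48 ± 0.12, a call that did not hold with median centring or on leaving out either control or mutant 2, and its dimmest had -0.10 ± 0.19 and did not pass. Cd151, a tetraspanin of the hemidesmosome, rose on 4 of 5 tested probe sets. The brightest had 856 and 709 in mutants, against 511 and 497 in controls (0.63 ± 0.12, limma adjusted p = 4.05e-03). The other rises of Cd151 were 0.67 ± 0.10, 0.54 ± 0.11 and 0.42 ± 0.14, the last of which did not hold with median centring, with dim probe sets kept in the test (0.0618), or on leaving out control 2 or either mutant. Its dimmest tested probe set had 0.21 ± 0.45 and did not pass.

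Of 13 basal integrins and their linkers 6 rose and 7 did not pass, with a median of 0.25, while 20.6% of all genes rose. Fermt2, a kindlin that helps to activate integrins, had 1094 and 1162 in mutants, against 156 and 166 in controls (log2 change 2.81 ± 0.10, limma adjusted p = 1.42e-06). Itgav, an alpha chain of receptors for fibronectin and vitronectin, had 1495 and 1416 in mutants, against 424 and 445 in controls (1.74 ± 0.09, limma adjusted p = 7.32e-06). Both of these changes were larger than that of any of the 9 basal genes on its brightest probe set. Ilk, an integrin-linked scaffold, rose by 0.67 ± 0.11. Itgb1, the beta chain of most other keratinocyte integrins, rose by 0.44 ± 0.10 on its brightest probe set and by 0.50 ± 0.12 on the second, which did not hold with median centring or on leaving out control 2 or mutant 2; its dimmest tested one had 0.44 ± 0.29 and did not pass. Parva (0.39 ± 0.12) and Itga2 (0.74 ± 0.24) also rose, but neither call held on leaving out any 1 of the 4 arrays or with median centring (adjusted p = 0.127 and 0.0719). That of Itga2 was also lost with quantile normalization (0.0582) and with dim probe sets kept in the test (0.0737). Itga3, a laminin receptor chain, had 0.18 ± 0.17 and 0.11 ± 0.16 on its brighter probe sets, which did not pass. It fell by 0.61 ± 0.17 on the dimmest (limma adjusted p = 0.0236), a call that did not hold on leaving out either control or mutant 1.

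Basement membrane genes moved both ways, with 6 of 19 higher, 4 lower and 9 not passing, and a median of -0.10. Genes over the whole array also moved both ways, 20.6% being higher in mutants and 24.5% lower. The chains of another epidermal laminin all rose on their brightest probe sets: Lamb1 by 1.55 ± 0.13, Lamc1 by 1.33 ± 0.12 and Lama5 by 1.14 ± 0.12. On the other tested probe sets, Lamb1 rose by 0.98 ± 0.13 and 0.73 ± 0.18, Lamc1 by 1.37 ± 0.12 and Lama5 by 1.27 ± 0.16. Lama5 signal was 640 and 771 in mutants, against 323 and 313 in controls. Npnt (nephronectin, an integrin ligand) had 962 and 954 in mutants, against 565 and 553 in controls (log2 change 0.78 ± 0.09, limma adjusted p = 4.09e-04). Other Npnt probe sets had 0.90 ± 0.12 and 0.64 ± 0.19, past the threshold, and 0.25 ± 0.22 and -0.10 ± 0.42, which did not pass. Lama2 and Nid2 were below the 40th percentile on both control arrays and were at least 1.99-fold and 1.79-fold higher in mutants, where signal was at most 33.9; neither call held on leaving out mutant 1, nor that of Nid2 on leaving out mutant 2. The falls were -1.45 ± 0.25 for Nid1, -1.13 ± 0.16 for Lamb2, -0.94 ± 0.11 for Col4a1 and -0.42 ± 0.09 for Dag1. The last, on the brightest Dag1 probe set, did not hold on leaving out control 1. The other Dag1 probe sets fell by 0.90 ± 0.10, 0.50 ± 0.14 and 0.42 ± 0.10, each past the threshold in the main fit. Col7a1, the collagen of the anchoring fibrils under the hemidesmosome, had 273 and 362 in mutants, against 351 and 344 in controls. The groups overlapped, and its change of -0.15 ± 0.15 did not pass (limma adjusted p = 0.475). Of 4 tested Fraser complex genes, which join embryonic epidermis to dermis, Fras1 fell, with 541 and 529 in mutants, against 843 and 835 in controls (-0.65 ± 0.09, limma adjusted p = 1.10e-03). Grip1 fell by 0.50 ± 0.17, a call that held on leaving out none of the 4 arrays, and Frem1 rose by 0.89 ± 0.29, a call that did not hold on leaving out either control or mutant 1. With dim probe sets kept in the test neither Grip1 (0.0683) nor Frem1 (0.0732) passed, nor did Frem1 with quantile normalization (0.0512). Frem2 had -0.32 ± 0.12 and did not pass (limma adjusted p = 0.0740), but did with median centring or on leaving out control 1.

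**Figure D5:**
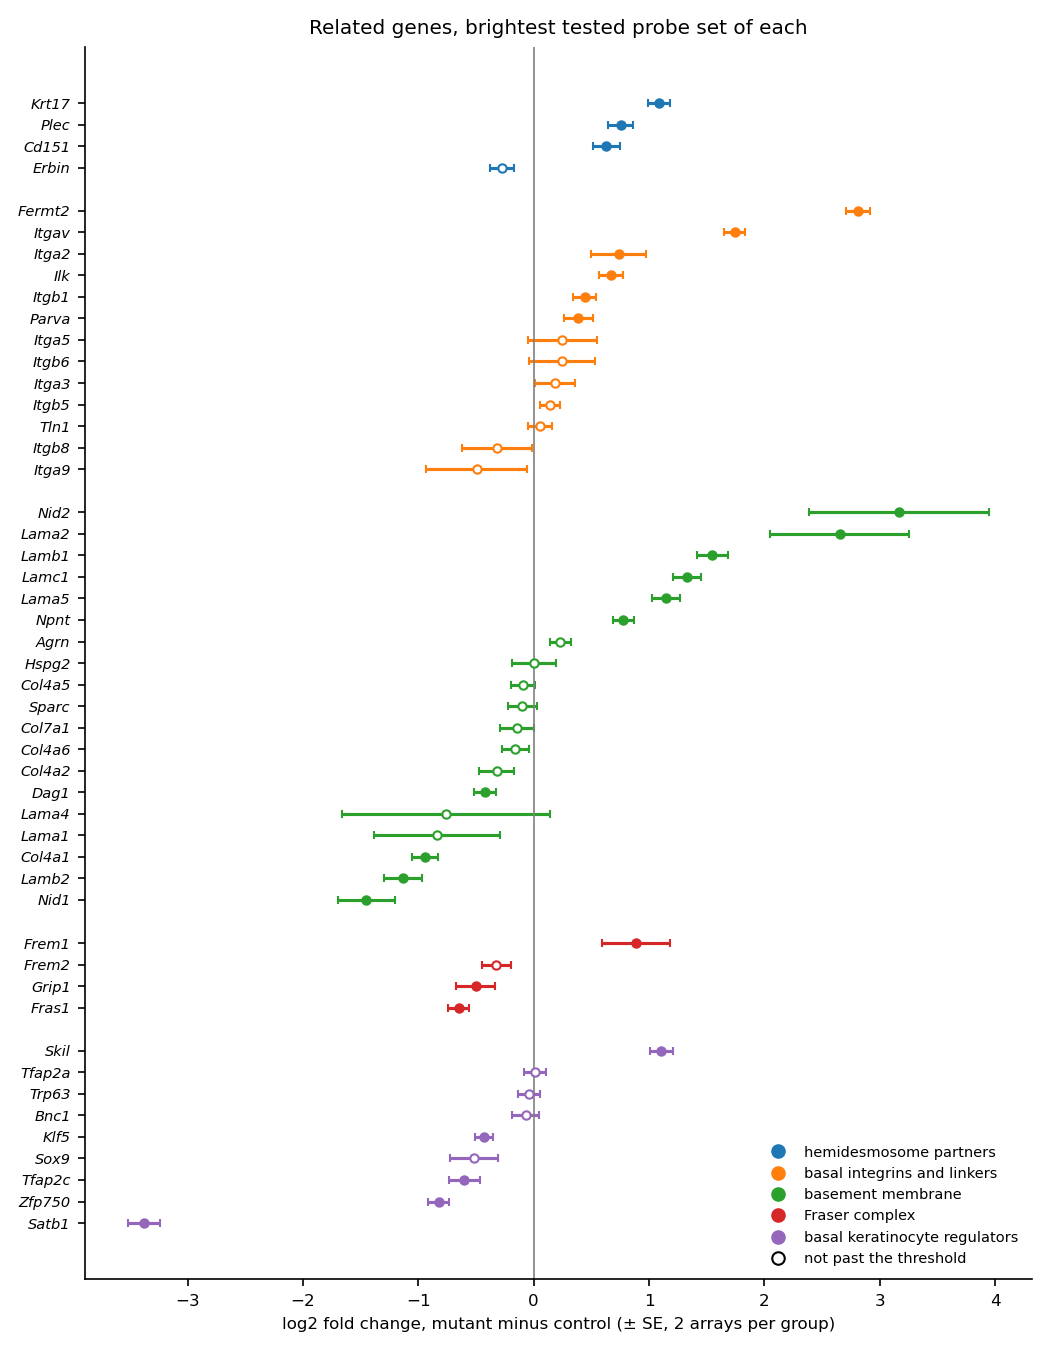
Log2 fold change (mutant minus control, ± SE over 2 arrays per group) of the 49 related genes, each read by its brightest tested probe set and coloured by list; open points did not pass the threshold. Fermt2 and Itgav lie furthest right among the integrins and linkers, Lamb1, Lamc1 and Lama5 lie between 1.14 and 1.55, and Satb1, at -3.37, lies furthest left.

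Of 9 regulators of the basal cell 4 fell, 1 rose and 4 did not pass, with a median of -0.43. Among all genes 24.5% fell and 20.6% rose. Satb1, a chromatin organiser of the epidermis, had 161 and 125 in mutants, against 1422 and 1522 in controls (log2 change -3.37 ± 0.14, limma adjusted p = 2.40e-06). Zfp750, a factor of keratinocyte differentiation, fell by 0.82 ± 0.09, Tfap2c by 0.60 ± 0.13 and Klf5 by 0.43 ± 0.08, and Skil rose by 1.11 ± 0.10. That call of Tfap2c, on its brightest probe set, did not hold on leaving out control 1. The other Tfap2c probe sets fell by 0.75 ± 0.11 and 0.495 ± 0.155, each past the threshold in the main fit. Trp63 encodes p63, which sets the basal keratinocyte fate, and had 2303 and 2423 in mutants, against 2276 and 2605 in controls on its brightest probe set. The groups overlapped there (-0.04 ± 0.10, limma adjusted p = 0.749), while the other probe sets had -0.51 ± 0.10, -0.38 ± 0.10 and 0.74 ± 0.25, each past the threshold. The probe sets of Trp63 thus disagreed in direction. Of these 3 calls, that at -0.38 did not hold on leaving out either control or mutant 1, and that at 0.74 did not hold with median centring, quantile normalization or dim probe sets kept in the test, or on leaving out control 2 or mutant 1. With no intensity trend in the fit, the calls of Itgb1 on its brighter probe sets missed the threshold. So did those of Parva, Frem1, Grip1, Dag1, Klf5, Tfap2c, Krt6a and Krt13 on the brightest probe set of each. Those of the second Plec, the 2 dimmer Cd151 and the dimmest Itga3 probe set, and all 3 of Trp63, also missed it.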

How the data were processed

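Signal was measured on 4 MOE430 2.0 arrays, 2 of mutant and 2 of control epidermis. The deposited intensity values are linear signals, made with GCOS and MAS5 per the submitters' processing notes (versions not given in the sources used here), and were already scaled, so no further normalization was applied. The authors' deposited table gives ratios from GCRMA, control over mutant, for probe sets Present on at least 2 of 4 arrays and differing at least 2-fold, per the file headers; it lists 5 of the 16 probe sets. Instrument files showed 1 station, 1 scanner and 4 fluidics modules, 1 for each array.

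Array controls (64) were left out. Symbols came from the platform annotation, updated through Entrez identifiers (34741 of 34945 matched). Probe sets above their array's 40th percentile on at least 2 arrays were tested on log2 signal with limma (3.58.1, R 4.3.3; lmFit, eBayes with intensity trend), two-sided, with Benjamini-Hochberg adjustment over all 28434 and a threshold of 0.05. For a group at or below that percentile on both arrays, the bound takes the higher of percentile and signal on each. Errors are SEs of the fit. With 2 against 2, an exact permutation test cannot go below p = 0.333, so the calls rest on limma's pooled spread, and the number of arrays limits precision. On simulated data with the same 28434 probe sets, 77 of 100 changed 2-fold and 93 of 100 changed 4-fold were recovered, with 9 false among 179 calls. No other probe sets were changed in the simulation, while 39.4% passed in the real data. The simulated spread was set by mean signal alone. These rates therefore need not hold for the real calls.

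Members and lists were chosen with earlier results of these data known. Named from the lists were all probe sets of Plec, Cd151, Col7a1, Itga3 and Itgb1, up to 4 further genes per list with the largest moderated t, and, chosen after their values were seen, Itga2, Lama2, Nid2, Nid1, Lamb2, Col4a1, Dag1, Tfap2c and Trp63; neighbouring keratins were taken by gene order. Further probe sets of Lamb1, Lamc1, Lama5, Npnt, Dag1 and Tfap2c were likewise added after their values were seen. Lists are described by counts and medians, with no set test. No build is named for the arrays, so only promoter windows have coordinates. Equal sample numbers were not taken as pairs. The controls were littermates, but no label says which mutant and control embryos shared a litter, or names a batch. Alternatives were the filter, centring, quantile normalization, the trend, an offset of 16, the replicate block, 1 probe set per gene and leaving out each array.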

Additional observations from a re-analysis of the deposited data

How the results depend on the processing

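Of 170 values of the 15 tested probe sets under the alternatives, 0 changed direction, 14 lost their call and 2 gained one; 4 differed in size in the authors' deposited table. Falls among them numbered 5 without the intensity trend, against 8, and 5 to 9 on leaving out single arrays (5 without control 1, control 2 or mutant 1). With 1 probe set per gene 4 of the 9 genes fell, as many as by the brightest probe set in the main fit. Rises numbered 3 or 4 throughout. In the related lists falls numbered 12 without the intensity trend, against 25, and 16 to 22 on leaving out single arrays, with 16 without control 1. Median centring moved the median change of all probe sets to -0.14, against -0.026, gave 4 rises and 9 falls among the 15, and put 38.7% of all calls upward, against 48.0%. The replicate block gave 4 rises and 8 falls among the 15 and 37 and 27 in the related lists. Deviations of same-numbered arrays correlated at 0.0145. With 2 arrays per group, that value cannot show whether equal sample numbers share a litter or batch. Changes that did not pass and turned sign on leaving out single arrays ranged from -0.21 to 0.0033 for the dimmest Plec probe set (0.0025 without control 1), from -0.39 to 0.81 for the dimmest tested of Cd151, from -0.043 to 0.41 and from -0.059 to 0.29 for the brighter 2 of Itga3, from -0.35 to 0.060 for Col7a1 and from -0.14 to 0.054 for the brightest of Trp63. The cause was not tested.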
